A study of Mus musculus with 18 samples.

Results

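The 10 genes described here encode the NF-κB transcription factors of WEHI-231 cells and proteins that regulate them: the DNA-binding subunits Nfkb1, Nfkb2, Rel, Rela and Relb, and the IκB proteins and feedback inhibitors Nfkbia, Nfkbie, Nfkbid, Tnfaip3 and Bcl3. The last 5 are called inhibitors for short, although Bcl3 serves as a cofactor of NF-κB dimers. The 10 genes were taken by name from the gene count tables. All 10 passed the filter on low counts, 10 of the 15318 genes tested and of the 55487 in the tables, and each member held between 268 and 12195 counts in every library.

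WEHI-231 is a mouse B cell lymphoma line of immature B cell type in which ligation of the B cell receptor (BCR) leads to apoptosis. The study compared 3 genotypes: the parental line, labelled WT, and the TFEB knockout clones #A-59 and #B-20, each derived from a cell that had received Cas9 protein and a crRNA against exon 3 or exon 5 of Tfeb. Cells of each genotype were unstimulated (0 h) or given F(ab')2 fragments of anti-IgM at 10 µg/ml and left for 6 h or 18 h, giving 9 groups of 2 RNA-seq libraries and 18 libraries in all. Each knockout genotype was 1 clone, so an effect of Tfeb loss and a trait of the clone cannot be told apart within a clone, and both clones were compared with the same parental libraries. In these bulk RNA samples a change in the level per cell and a change in the mix of surviving cells cannot be told apart.

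Library totals ranged from 11223588 to 29655262 counts. Tfeb itself, which encodes the lysosomal and autophagy regulator TFEB, stood at 79.2 and 82.8 CPM (counts scaled to library size) in unstimulated parental cells, 25.9 and 25.5 in clone #A-59 and 34.2 and 39.1 in clone #B-20, so Tfeb RNA was lower in both clones but still present. Replicate 2 of #B-20 at 6 h stood apart, with 2.9% of its counts in 1 gene without a symbol, against at most 0.819% for the top gene of any other library. In comparisons that used that group, leaving it out ended the calls of Tnfaip3 at 6 h against 0 h (log2 fold change -1.57 with it and -1.30 without, FDR = 0.0453), of Rel (0.44 and 0.31, FDR = 0.121) and Nfkbia (0.62 and 0.62, FDR = 0.0125) from 6 h to 18 h, and of Nfkbid against parental cells at 6 h (0.45 and 0.52, FDR = 0.0183). The 8 B cell markers were tested in full and moved with time: their sums in parental cells were 5060 and 5390 CPM unstimulated, 3600 and 3660 after 6 h, then 6770 and 7110 after 18 h, and reached at most 8790 in any library. The 5 plasma cell markers, 4 of them tested, summed to 335 and 336, 347 and 358, and 208 and 209 CPM at these times, and in #A-59 at 6 h to 195 and 220. Most of that sum was Irf4 and Xbp1, at 161 and 163 CPM and 168 and 165 CPM in unstimulated parental cells. At 18 h these were at 54.3 and 45.7 and at 147 and 156 CPM. Jchain went the other way in parental cells, from 4.2 and 3.72 CPM at 0 h to 6.33 and 7 at 18 h, and Prdm1 never exceeded 5 counts. The 6 T cell markers summed to at most 1.04 CPM, and none of them passed the filter. The 6 myeloid markers summed to between 6.65 and 38.5 CPM and the 5 stromal markers to between 21.9 and 164 CPM, with the highest sums of both in #A-59 at 18 h, where the myeloid sum was 36.7 and 38.5 and the stromal sum 135 and 164. Most of the stromal sum was Pecam1 (133 and 160 CPM in #A-59 at 18 h), and 2 markers each of the myeloid and stromal lists never exceeded 3 counts in any library. The part of these marker lists and of the #B-20 library in the results below was otherwise not tested.

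NF-κB proteins bind DNA as dimers of Rel-homology subunits. In resting cells the inhibitors of the IκB family hold the dimers in the cytoplasm. BCR ligation activates the IκB kinases, which mark IκB for degradation and free the dimers, whereas CD40 and the BAFF receptor also act through NIK and the processing of p100, the product of Nfkb2. Nfkbia, Nfkbie, Tnfaip3, Nfkb1, Nfkb2, Rel and Relb are themselves textbook NF-κB targets, so their mRNA levels form part of the negative and positive feedback of the system.

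Promoter windows, running from 250 bases before to 50 bases after an annotated start, were found in the RefSeq table of GRCm38.p6 for 8 of the 10 genes, in 13 windows. The windows of Nfkbia, Nfkbid, Tnfaip3 and Nfkbie are shown because these inhibitors were lower at 18 h in every genotype, that of Rel because it moved in a different course, that of Bcl3 because it differed between the clones, and that of Rela because its level was nearly flat. Capitals mark matches on either strand to the κB consensus (GGG, a purine, any pair of bases, a pair of pyrimidines, CC) and, in Tnfaip3, the extended E-box palindrome, the core CACGTG with GT before it and AC after it. The core is bound by TFEB and other basic helix-loop-helix proteins. Overlapping matches are joined. For Nfkbid and Tnfaip3 only the window with κB matches is shown, and their other windows held none.
Nfkbia, chr12:55492598-55492897, minus strand: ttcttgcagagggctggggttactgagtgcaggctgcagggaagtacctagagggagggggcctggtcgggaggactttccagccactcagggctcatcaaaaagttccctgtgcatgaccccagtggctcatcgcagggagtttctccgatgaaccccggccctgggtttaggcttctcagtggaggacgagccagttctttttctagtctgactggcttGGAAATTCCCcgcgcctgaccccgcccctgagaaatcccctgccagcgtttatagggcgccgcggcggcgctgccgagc
Nfkbid, second start, chr7:30422156-30422455, plus strand: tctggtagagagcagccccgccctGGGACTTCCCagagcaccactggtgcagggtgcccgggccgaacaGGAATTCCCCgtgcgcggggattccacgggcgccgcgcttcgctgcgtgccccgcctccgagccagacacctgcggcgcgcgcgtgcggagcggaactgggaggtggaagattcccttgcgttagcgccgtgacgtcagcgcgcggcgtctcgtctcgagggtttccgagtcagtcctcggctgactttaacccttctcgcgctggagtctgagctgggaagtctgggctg
Tnfaip3, second start, chr10:19015361-19015660, minus strand: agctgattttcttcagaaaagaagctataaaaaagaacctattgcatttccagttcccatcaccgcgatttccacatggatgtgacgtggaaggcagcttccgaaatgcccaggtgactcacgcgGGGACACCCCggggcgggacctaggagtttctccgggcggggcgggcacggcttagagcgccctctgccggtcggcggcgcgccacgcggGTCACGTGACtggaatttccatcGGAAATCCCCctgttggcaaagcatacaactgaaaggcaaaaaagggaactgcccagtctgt
Nfkbie, chr17:45555450-45555749, plus strand: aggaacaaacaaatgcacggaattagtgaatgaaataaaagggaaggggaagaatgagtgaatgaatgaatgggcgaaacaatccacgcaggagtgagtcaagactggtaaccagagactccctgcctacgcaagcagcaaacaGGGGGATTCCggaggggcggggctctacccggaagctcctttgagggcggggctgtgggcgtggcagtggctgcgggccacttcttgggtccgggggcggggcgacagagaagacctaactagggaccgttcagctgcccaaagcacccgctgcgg
Rel, chr11:23770920-23771219, minus strand: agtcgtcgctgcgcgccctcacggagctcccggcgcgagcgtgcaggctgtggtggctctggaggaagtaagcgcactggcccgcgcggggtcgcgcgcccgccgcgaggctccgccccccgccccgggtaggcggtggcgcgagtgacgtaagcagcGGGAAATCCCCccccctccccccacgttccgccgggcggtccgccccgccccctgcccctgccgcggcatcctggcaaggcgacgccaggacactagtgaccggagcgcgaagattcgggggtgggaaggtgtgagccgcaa
Bcl3, chr7:19822706-19823005, minus strand: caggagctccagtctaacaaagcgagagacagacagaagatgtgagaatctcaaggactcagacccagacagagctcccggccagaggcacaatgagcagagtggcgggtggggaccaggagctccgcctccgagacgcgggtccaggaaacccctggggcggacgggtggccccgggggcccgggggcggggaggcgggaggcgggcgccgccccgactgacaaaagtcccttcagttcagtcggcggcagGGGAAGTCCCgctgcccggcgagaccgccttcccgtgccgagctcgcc
Rela, chr19:5637291-5637590, plus strand: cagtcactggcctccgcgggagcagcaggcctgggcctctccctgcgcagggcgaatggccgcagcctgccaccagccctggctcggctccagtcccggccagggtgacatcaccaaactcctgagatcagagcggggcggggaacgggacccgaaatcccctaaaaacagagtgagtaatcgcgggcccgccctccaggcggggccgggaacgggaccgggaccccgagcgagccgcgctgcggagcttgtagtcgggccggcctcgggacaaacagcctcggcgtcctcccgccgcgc

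The κB consensus was present in 9 of the 13 windows and in at least 1 window of 7 of the 8 genes, all but Rela. Windows 2 and 3 of Nfkb2 overlap, and the match in window 3 lies in window 2 as well, so that site is counted in both. Among all 32851 windows of the table, 8.46% held it. In Nfkbia the match began 29 bases before the start, in Nfkbie 106 bases before it, in Rel 92 bases before it and in Bcl3 2 bases after it. The second Tnfaip3 window held κB matches from 125 and from 12 bases before the start, with the E-box palindrome between them, from 35 bases before the start. That palindrome occurred in 0.326% of all windows and its CACGTG core in 7.15%, and no other window of the 8 genes held either. These matches describe the sequence and no binding was measured.

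**Figure D1:**
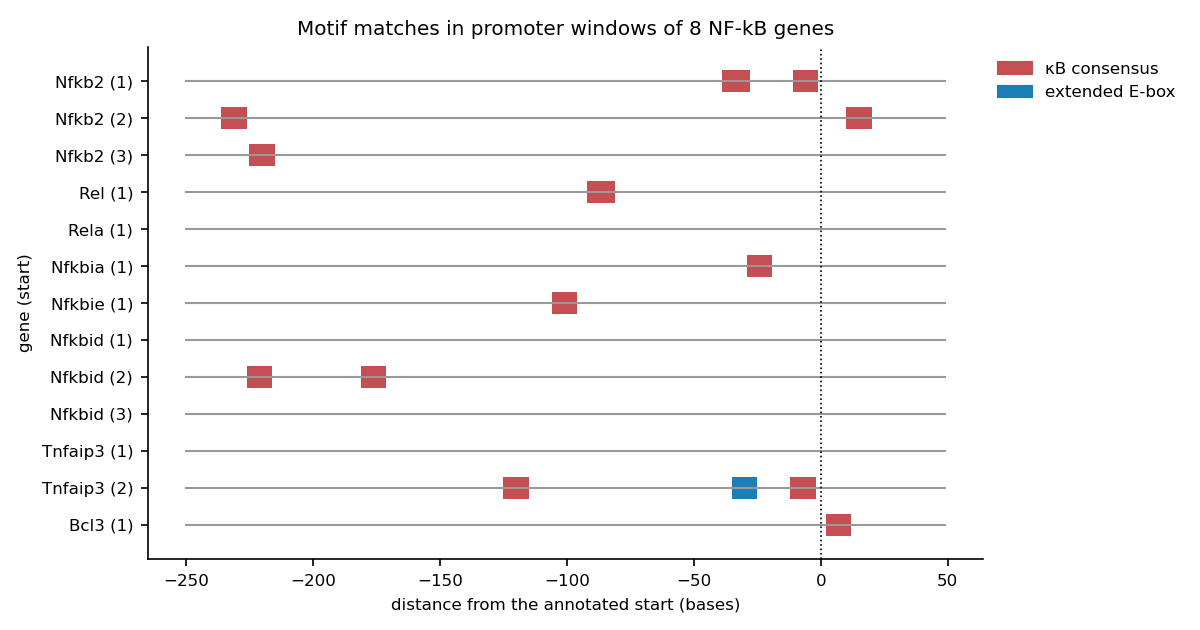
Motif matches in the 13 promoter windows of 8 genes, with the distance from the annotated start in bases on the horizontal axis and 1 line per annotated start, numbered in brackets. Red blocks are κB consensus matches, found in 9 windows, and the blue block is the E-box palindrome of Tnfaip3.

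Of the 5 inhibitors, 3 were lower 6 h after anti-IgM in parental cells and 4 in each clone, and after 18 h 4 were lower in every genotype. Of all 10 genes, 7 were lower at 6 h in parental cells, 8 in clone #A-59 and 4 in clone #B-20 at a false discovery rate (FDR, Benjamini-Hochberg over all genes tested) below 0.01 in edgeR's quasi-likelihood test, and none was higher. The shares of all tested genes that were lower were 4.24%, 3.69% and 0.875%, and those that were higher 3.1%, 2.45% and 0.411%. The median log2 fold change of the 10 genes was -0.75 in parental cells, -1.11 in clone #A-59 and -0.72 in clone #B-20, while that of all genes was at most 0.015. After 18 h, 7, 4 and 4 members were lower and again none was higher, against 16.2%, 17.1% and 11.4% of all genes.

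**Figure D2:**
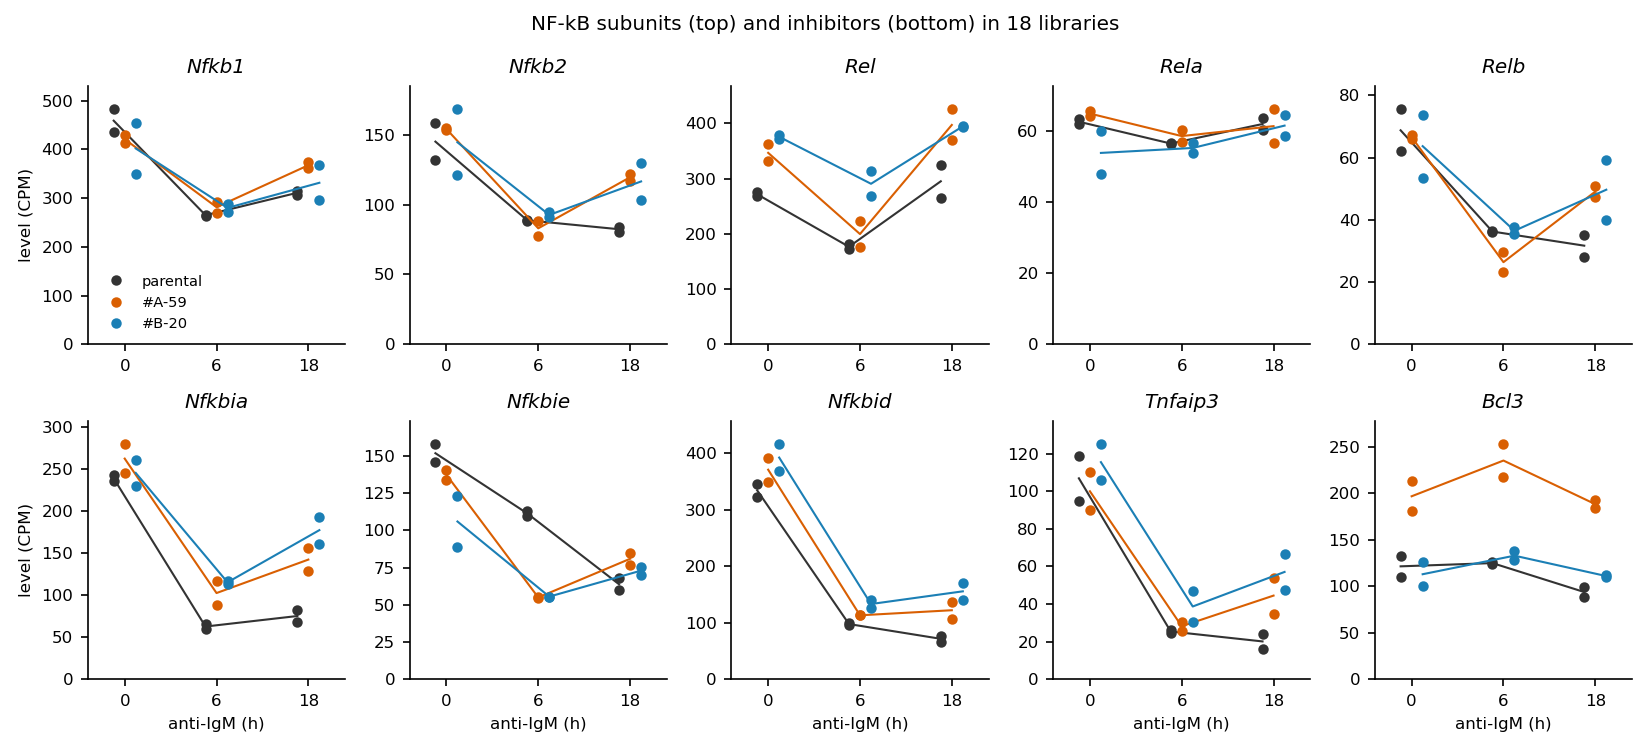
Levels in CPM of the 10 genes in all 18 libraries against the time of anti-IgM in hours, with subunits in the upper row and inhibitors in the lower row. Points are libraries, 2 per group, and lines join group means. Nfkbia, Nfkbid and Tnfaip3 are high at 0 h and low at 6 h in every genotype, Nfkbie crosses between 6 h and 18 h, and Bcl3 is set apart in #A-59.

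Nfkbia (ENSMUSG00000021025, GRCm38 chr12:55489409-55492647) encodes IκBα, the inhibitor that is degraded and resynthesised in the canonical pathway. In parental cells it read 235 and 242 CPM when unstimulated, 60 and 64.9 CPM after 6 h, and 82.1 and 67.8 CPM after 18 h. In #A-59 it was 279 and 245, then 116 and 88.5, then 156 and 128 CPM. In #B-20 it was 230 and 260, then 113 and 117, then 193 and 161 CPM. Before stimulation both #A-59 libraries lay above the parental ones and those of #B-20 overlapped them, and after it every library of either clone lay above every parental library of that time. Its log2 fold change at 6 h against 0 h was -1.94 ± 0.14 (SE, n = 2 libraries per group) in parental cells (edgeR FDR = 2.58e-08), -1.35 ± 0.13 in clone #A-59 (FDR = 4.58e-06) and -1.09 ± 0.13 in clone #B-20 (FDR = 9.36e-05). At 18 h it was -1.68, -0.88 and -0.47, the last with an FDR of 0.00985. That call in #B-20 was lost in 9 of the 18 fits that left out 1 library, with an FDR of up to 0.106.

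Nfkbid (ENSMUSG00000036931, GRCm38 chr7:30421731-30428749) encodes IκBNS, a nuclear IκB protein needed for several B cell responses. Its parental levels were 323 and 346 CPM unstimulated, 95.9 and 99.1 CPM after 6 h, and 76.4 and 66.3 CPM after 18 h. Those of #A-59 were 392 and 350, 113 and 113, and 137 and 107 CPM. Those of #B-20 were 369 and 416, 140 and 126, and 170 and 141 CPM. Its level fell in every genotype at both times, with log2 fold changes of -1.78, -1.71 and -1.56 at 6 h, and time accounted for 87% of its variance over the 18 libraries. Parental cells went on falling between 6 h and 18 h (log2 fold change -0.45 ± 0.12, edgeR FDR = 0.00408), whereas the values for the clones were 0.11 and 0.23 and did not pass. The parental fall did not pass when 6 h replicate 1, 6 h replicate 2 or 18 h replicate 2 was left out (FDR up to 0.0648).

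Tnfaip3 (ENSMUSG00000019850, GRCm38 chr10:19000910-19015410) encodes A20, a ubiquitin-editing enzyme that shuts down signalling to the IκB kinases. It stood at 119 and 94.8 CPM in unstimulated parental cells, 26.1 and 24.6 at 6 h, and 23.9 and 16.2 at 18 h. In #A-59 the levels were 110 and 90.0, then 30.6 and 25.7, then 54.0 and 34.9 CPM. In #B-20 they were 125 and 106, then 47.1 and 30.2, then 66.6 and 47.5 CPM. No stimulated library reached the unstimulated range of its genotype, and the replicates of stimulated #B-20 lay far apart. The log2 fold change at 6 h was -2.08 ± 0.27 in parental cells (edgeR FDR = 0.000193), -1.82 ± 0.27 in clone #A-59 and -1.57 ± 0.26 in clone #B-20. At 18 h it was -2.44, -1.16 and -1.02, all past the threshold. The parental calls held in each fit without 1 library. The calls in the clones did not, being lost in 2 (#A-59, 6 h), 9 (#B-20, 6 h), 4 (#A-59, 18 h) and 11 (#B-20, 18 h) of the 18 fits, with an FDR of up to 0.0611.

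Nfkbie (ENSMUSG00000023947, GRCm38 chr17:45555700-45563169) encodes IκBε, which in B cells holds Rel and Rela dimers. In parental cells it went from 146 and 158 CPM at 0 h to 110 and 113 at 6 h and 67.9 and 59.7 at 18 h. In #A-59 it went from 141 and 134 to 55.3 and 54.6 and then to 84.8 and 77.1 CPM. In #B-20 it went from 89.1 and 123 to 55.5 and 55.5 and then to 70.3 and 75.7 CPM. Parental libraries were lowest at 18 h, whereas both clones were lowest at 6 h. The parental log2 fold change at 6 h against 0 h, -0.45 ± 0.11, did not pass (edgeR FDR = 0.0109), and that at 18 h did. The fold change from 6 h to 18 h was -0.81 ± 0.12 in parental cells (edgeR FDR = 1.31e-05), 0.56 ± 0.12 in clone #A-59 (FDR = 0.000736) and 0.39 ± 0.12 in clone #B-20 (FDR = 0.0129). The #A-59 value did not pass without #A-59 18 h replicate 1 (FDR = 0.0183).

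Bcl3 (ENSMUSG00000053175, GRCm38 chr7:19808462-19822824) encodes a nuclear IκB protein that serves as a cofactor of p50 and p52 dimers. Parental cells held 110 and 133 CPM when unstimulated, 124 and 126 CPM after 6 h, and 88.2 and 99.4 CPM after 18 h. Clone #A-59 held 213 and 181, then 253 and 218, then 193 and 184 CPM. Clone #B-20 held 100 and 126, then 128 and 138, then 110 and 112 CPM. Every #A-59 library lay above every library of the other genotypes, and genotype accounted for 83% of the variance of Bcl3 and time for 9.74%. No comparison with 0 h passed the threshold in any genotype, and of the changes between 6 h and 18 h that of parental cells did (-0.41 ± 0.12, edgeR FDR = 0.00789). It was lost without any 1 of the 4 parental libraries of 6 h and 18 h, with an FDR of up to 0.0644.

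**Figure D3:**
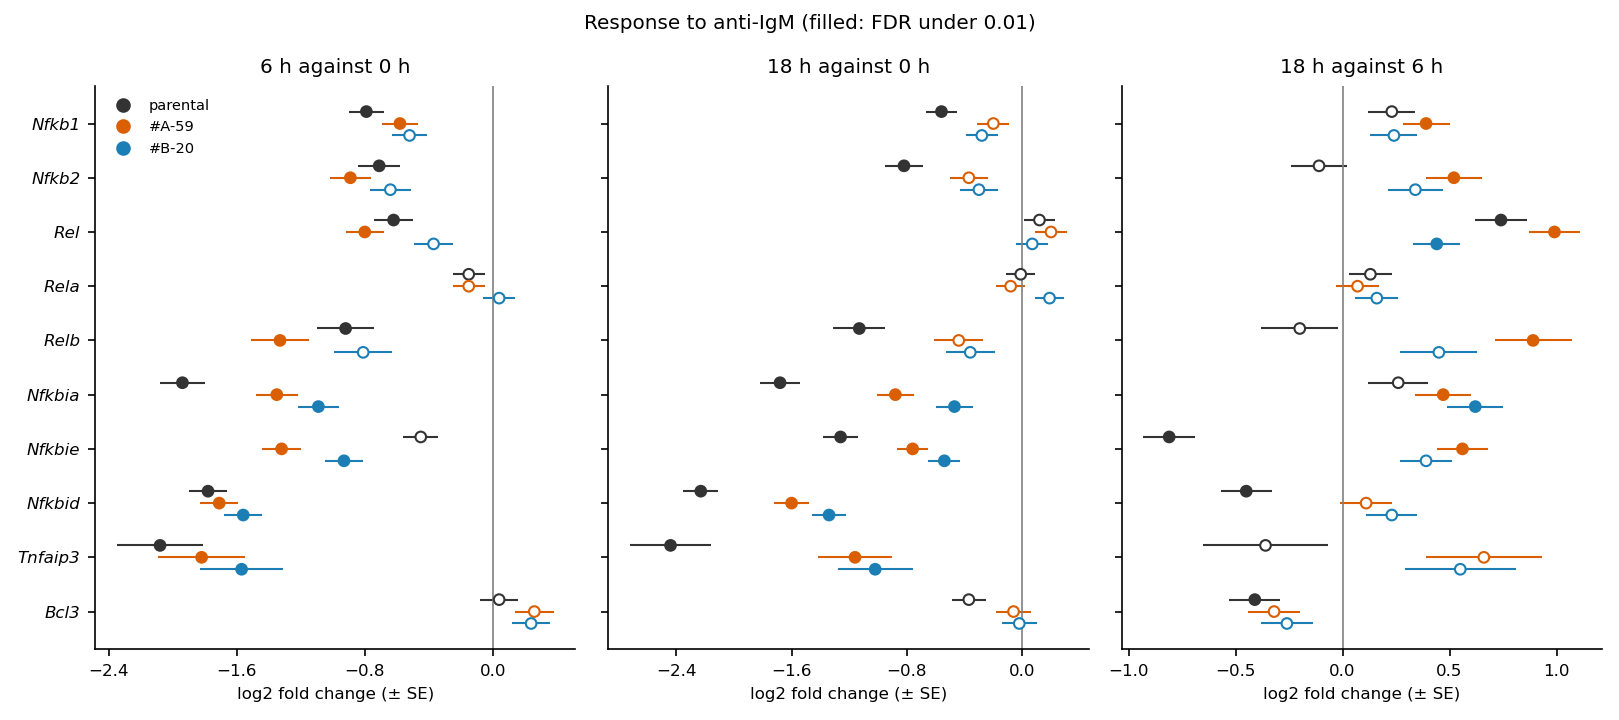
Log2 fold change with its SE for the 10 genes in parental cells, #A-59 and #B-20, at 6 h against 0 h, 18 h against 0 h and 18 h against 6 h of anti-IgM. Filled points have an FDR below 0.01. At 6 h and 18 h every filled point lies left of 0, and in the last panel Nfkbie is at -0.81 in parental cells and at 0.56 and 0.39 in the clones.

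At 6 h, 4 of the 5 subunits, all but Rela, were lower in parental cells and in #A-59. Of all genes, 4.24% and 3.69% were lower there. For clone #B-20 the count was 0, where only 0.875% of all genes were lower. The log2 fold changes of the same 4 subunits in that clone were also negative, from -0.81 to -0.37. After 18 h, 3 subunits were lower in parental cells, Nfkb1, Nfkb2 and Relb, and 0 in each clone. The shares of all genes lower at that time were 16.2% in parental cells, 17.1% for clone #A-59 and 11.4% for clone #B-20. Nfkb1 (ENSMUSG00000028163, GRCm38 chr3:135584655-135691969), the source of p105 and p50, was at 436 and 482 CPM in unstimulated parental cells and at 266 and 264 after 6 h. Its log2 fold change at 6 h was -0.79 ± 0.11 in parental cells (edgeR FDR = 7.29e-05), -0.58 ± 0.11 in clone #A-59 (FDR = 0.00221) and -0.52 ± 0.11 in clone #B-20 (FDR = 0.0136). At 18 h it remained lower in parental cells (-0.56, FDR = 0.00048), with values of -0.20 in clone #A-59 and -0.28 in clone #B-20 that did not pass. The #A-59 call at 6 h was lost without its 0 h replicate 2 (FDR = 0.0277).

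Nfkb2 (ENSMUSG00000025225, GRCm38 chr19:46300994-46312400), which encodes p100 and p52, and Relb (ENSMUSG00000002983, GRCm38 chr7:19606217-19629438), the partner of p52 in the non-canonical arm, followed similar courses. Parental Relb went from 62.1 and 75.5 CPM to 36.2 and 36.3 at 6 h and 35.2 and 28.2 at 18 h. In #A-59 it went from 67.3 and 65.9 to 29.6 and 23.2 and then to 50.8 and 47.4 CPM, and in #B-20 from 53.6 and 73.8 to 35.4 and 37.6 and then to 40.1 and 59.3 CPM. Relb thus rose again in #A-59 between 6 h and 18 h (log2 fold change 0.89 ± 0.18, edgeR FDR = 0.000827), with -0.20 in parental cells and 0.45 in #B-20, which did not pass. Nfkb2 was at 132 and 158 CPM in unstimulated parental cells, 89.0 and 88.4 at 6 h, and 80.5 and 84.1 at 18 h. Its log2 fold change at 18 h was -0.82 ± 0.13 in parental cells (FDR = 7.4e-05), and the values of -0.37 in clone #A-59 and -0.30 in clone #B-20 did not pass. In #B-20 at 6 h the fold changes were -0.64 for Nfkb2 (FDR = 0.011) and -0.81 for Relb (FDR = 0.0199), also without passing. At 6 h the parental calls of Nfkb2, Rel and Relb were lost when WT 0 h replicate 2, WT 6 h replicate 1 or WT 6 h replicate 2 was left out, with an FDR of at most 0.0374. The rise of Relb in #A-59 was lost without #A-59 6 h replicate 2 or 18 h replicate 1 (FDR up to 0.0255).

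Rel (ENSMUSG00000020275, GRCm38 chr11:23736847-23770969) encodes c-Rel, a subunit used mainly by lymphoid and myeloid cells. In parental cells it was at 268 and 275 CPM, then 181 and 172, then 325 and 265. In #A-59 it was at 331 and 362, then 176 and 223, then 425 and 369 CPM. In #B-20 it was at 372 and 379, then 313 and 268, then 394 and 395 CPM. All genotypes were lowest at 6 h, and the log2 fold changes at 18 h against 0 h, 0.12, 0.20 and 0.07, did not pass. From 6 h to 18 h Rel rose by 0.74 ± 0.12 on the log2 scale in parental cells (edgeR FDR = 3.33e-05), 0.99 ± 0.12 in clone #A-59 (FDR = 2.13e-06) and 0.44 ± 0.11 in clone #B-20 (FDR = 0.00597), the last being lost in 8 of the 18 fits without 1 library (FDR up to 0.121). The log2 fold change at 6 h against 0 h passed in parental cells (-0.62) and #A-59 (-0.80), and that of #B-20 was -0.37 (FDR = 0.1). Between 6 h and 18 h, 4, 6 and 2 members changed in parental cells, #A-59 and #B-20, against 38.3%, 31.9% and 22.6% of all genes.

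Rela (ENSMUSG00000024927, GRCm38 chr19:5637442-5648134), the gene of the transactivating subunit p65, stayed between 47.9 and 66.2 CPM in all 18 libraries. None of its 24 fold changes passed the threshold, and they ranged from -0.27 to 0.20 with SEs of at most 0.15. Its log2 CPM had the lowest SD of the 10 genes over the libraries, 0.12, of which 41.3% of the variance lay between replicates.

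The clones were then compared with parental cells at each time. Before stimulation 1 member differed in clone #A-59 and 2 in clone #B-20, against 9.56% and 10.7% of all genes. In #A-59 the share of members was near that of all genes, and in #B-20 it was higher on a count of 2. At 6 h these counts were 3 and 4, against 22.7% and 14.2%, and at 18 h 4 and 4, against 10.4% and 14.2%. All members that passed at 18 h were higher in the clones, where 4.75% and 5.7% of all genes were higher. The median log2 difference of the 10 genes at 18 h was 0.59 for #A-59 and 0.46 for #B-20, and that of all genes -0.022 and 0.01.

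Nfkbia was higher in both clones after stimulation. The log2 difference from parental cells was 0.13 in clone #A-59 and 0.04 in clone #B-20 at 0 h, neither past the threshold, 0.72 ± 0.13 (edgeR FDR = 0.00045) and 0.88 ± 0.14 (FDR = 7.83e-05) at 6 h, and 0.93 ± 0.14 (FDR = 7.3e-05) and 1.24 ± 0.14 (FDR = 1.7e-06) at 18 h. The #A-59 value at 6 h passed the threshold no longer without WT 6 h replicate 1 or #A-59 6 h replicate 1 (FDR up to 0.0129). Nfkbid was higher at 18 h by 0.78 ± 0.12 in clone #A-59 (FDR = 0.000119) and 1.13 ± 0.12 in clone #B-20 (FDR = 1.06e-06). At 6 h it was higher in #B-20 by 0.45 (FDR = 0.00926), a call lost in 12 of the 18 fits without 1 library (FDR up to 0.111).

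Tnfaip3 differed at 18 h by 1.18 ± 0.28 in clone #A-59 (edgeR FDR = 0.0121) and 1.53 ± 0.28 in clone #B-20 (FDR = 0.00147), so that the second passed and the first did not. The #A-59 difference did pass when a replicate block was added to the fit, as given under the dependence on processing below. The #B-20 call was lost without WT 18 h replicate 2 or #B-20 18 h replicate 1, with an FDR of up to 0.0323, and in the fit of the compared libraries alone (FDR = 0.0141). Nfkb2 was higher at 18 h in both clones, by 0.54 ± 0.13 (FDR = 0.00852) and 0.50 ± 0.13 (FDR = 0.00984). These calls lay close to the threshold and were lost in 11 and 13 of the 18 fits, with an FDR of up to 0.158. Relb differed by 0.64 and 0.66 without passing (FDR = 0.0225 and 0.0143).

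Nfkbie was the member that was lower in both clones at 6 h, with log2 differences of -1.02 ± 0.12 for #A-59 (edgeR FDR = 1.81e-06) and -1 ± 0.12 for #B-20 (FDR = 2.7e-06), and the 4 clone libraries of that time lay between 54.6 and 55.5 CPM. Before stimulation it was lower in #B-20 (-0.52 ± 0.11, FDR = 0.00287), a call lost without #B-20 0 h replicate 1 or either WT 0 h library (FDR up to 0.0908). It was also lost in the fit of the compared libraries alone (FDR = 0.02) and with GC correction (-0.31, FDR = 0.0611). At 18 h the differences were 0.35 in clone #A-59 and 0.20 in clone #B-20 and did not pass.

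Bcl3 was higher in #A-59 at all times, by 0.70 ± 0.12 at 0 h (edgeR FDR = 0.000294), 0.92 ± 0.12 at 6 h (FDR = 7.73e-06) and 1 ± 0.12 at 18 h (FDR = 6.03e-06). In #B-20 the differences were -0.11, 0.09 and 0.24, with FDRs of 0.601, 0.629 and 0.16. With correction for GC content these became 0.22, 0.33 and 0.39, so that 6 h (FDR = 0.00702) and 18 h (FDR = 0.00175) passed. Compared directly, #B-20 was below #A-59 by 0.80, 0.83 and 0.76 on the log2 scale at the 3 times, all with an FDR of at most 0.000104, and with GC correction by 0.49, 0.49 and 0.65. The difference at 0 h between #A-59 and parental cells was lost without WT 0 h replicate 1 (FDR = 0.0141). Bcl3 was the single member that differed between the clones at 0 h and 18 h, where 8.41% and 16.2% of all genes did.

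At 6 h 2 members, Bcl3 and Rel, differed between the clones, against 18.7% of all genes, with Rel 0.54 ± 0.12 higher in #B-20 (edgeR FDR = 0.00165). Against parental cells Rel was higher in #B-20 at 0 h (0.47 ± 0.11, FDR = 0.00736) and 6 h (0.72 ± 0.12, FDR = 0.000126), with 0.42 at 18 h (FDR = 0.0121). In #A-59 its differences were 0.35, 0.18 and 0.43, none past the threshold. The call at 0 h in #B-20 was lost in 8 of the 18 fits without 1 library (FDR up to 0.0667). The difference between the clones at 6 h was lost without #A-59 6 h replicate 1 or #B-20 6 h replicate 1 (FDR up to 0.0405).

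**Figure D4:**
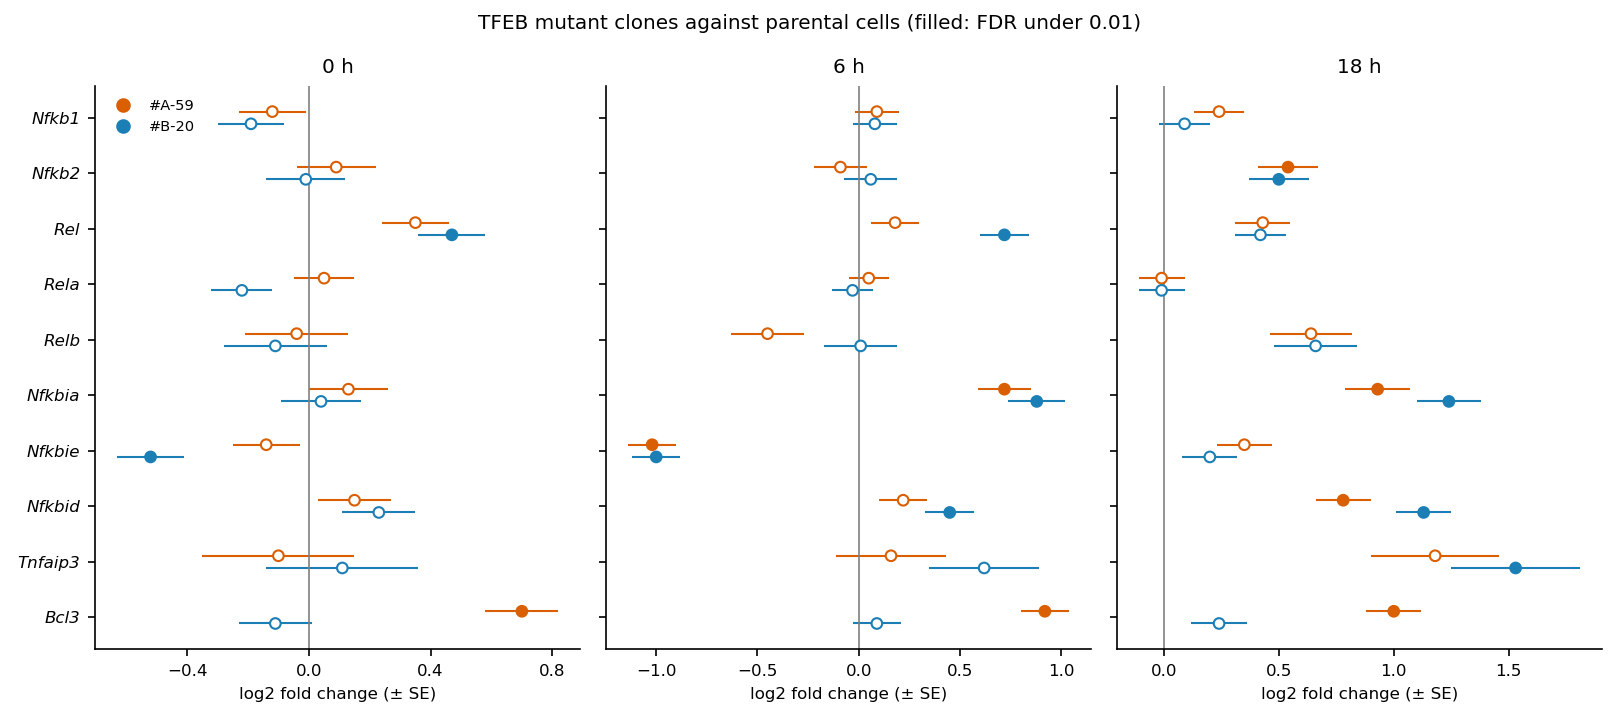
Log2 difference from parental cells, with its SE, of the 10 genes in clones #A-59 and #B-20 at 0 h, 6 h and 18 h of anti-IgM. Filled points have an FDR below 0.01. At 6 h Nfkbie lies at -1.02 and -1 and Nfkbia at 0.72 and 0.88, and Bcl3 is filled for #A-59 in each panel.

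Whether the response itself differed between a clone and parental cells was tested with interaction terms. At 6 h the fall of Nfkbie was larger in #A-59 by 0.87 on the log2 scale (-0.87 ± 0.16, edgeR FDR = 0.00643), where 0.646% of all genes passed. It was lost in 9 of the 18 fits without 1 library (FDR up to 0.04). The corresponding 6 h value of Nfkbie in #B-20 was -0.48 ± 0.16 and did not pass (edgeR FDR = 0.296). At 18 h the fall of Nfkbia was smaller in #B-20 by 1.21 ± 0.19 (FDR = 0.005), where 0.222% of all genes passed. It was lost without any 1 of WT 0 h replicates 1 and 2, #B-20 0 h replicates 1 and 2, WT 18 h replicate 2 and #B-20 18 h replicate 1 (FDR up to 0.0451). No member passed for the 18 h response of #A-59, where 0.0392% of all genes did, or for the 6 h response of #B-20, where 0.183% did. In edgeR 7 and 2 members had an unadjusted p below 0.05 in these comparisons, beside 6.67% and 7.45% of all genes, and DESeq2 called 0 and 1. At 18 h the interaction of Nfkbia in #A-59 was 0.79 ± 0.19 (edgeR FDR = 0.134). Those of Nfkbid were 0.63 in #A-59 (FDR = 0.219) and 0.90 in the other clone (FDR = 0.0142). Those of Tnfaip3 were 1.28 ± 0.38 in #A-59 (FDR = 0.414) and 1.43 ± 0.38 in #B-20 (FDR = 0.112). The Tnfaip3 values passed when a replicate block was added to the fit, as given under the dependence on processing below.

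The change from 6 h to 18 h was compared in the same way after the levels of Nfkbie had been seen. It differed from that of parental cells by 1.36 ± 0.16 in clone #A-59 (edgeR FDR = 0.000105) and by 1.20 ± 0.16 in clone #B-20 (FDR = 0.000402), with 1.71% and 1.51% of all genes passing. Nfkbie was the only member to pass in these comparisons, and it did so in each alternative fit and each fit without 1 library. Relb in clone #A-59 gave 1.09 ± 0.26 (FDR = 0.0211) and Nfkbid in clone #B-20 0.68 ± 0.17 (FDR = 0.0254).

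Levels were also compared between the genes per length, on the RPKM scale with all annotated exons of a gene merged (GENCODE vM39). The order depends on that merged length, which was 12848 bases for Nfkb1, 9711 for Tnfaip3, 2353 for Nfkbid and 1937 for Nfkbia. As CPM, without the length, Nfkb1 had the highest mean in unstimulated parental cells (459), before Nfkbid (334), Rel (272) and Nfkbia (238). Tnfaip3 (107) then lay above Relb (68.8) and Rela (62.8). In unstimulated parental cells Nfkbid (142 RPKM) and Nfkbia (124 RPKM) stood well above the rest, followed by Nfkbie (36.3), Nfkb1 (35.8) and Rel (35.0), whose neighbours in this order overlapped, and then by Bcl3 (23.2), Rela (19.2), Nfkb2 (18.4), Relb (13.5) and Tnfaip3 (11). Rela and Nfkb2 overlapped, as did Relb and Tnfaip3. After 18 h Nfkbia (38.7 RPKM) and Rel (38.0 RPKM) led with overlapping levels, Nfkbid was at 30.3, and Tnfaip3 was last at 2.06. In the clones at 18 h Nfkbia was at 73.3 RPKM in clone #A-59 and 91.3 in clone #B-20, above Nfkbid in both.

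Within the summed per-length mRNA of the 5 subunits, the share of Rel was 28.8% ± 1.29 (SD, n = 2) in unstimulated parental cells and 38.8% ± 3.25 at 18 h. In #A-59 it was 34.4% ± 1.37 and 41.5% ± 2, and in #B-20 38.4% ± 4.35 and 42.5% ± 3.6, so the libraries of 0 h and 18 h overlapped in #B-20 and in no other genotype. The share of Relb in parental cells went from 11.1% ± 0.837 to 6.36% ± 0.618, while that of Rela went from 15.8% to 21.9% at 6 h and 19.4% at 18 h as its own level hardly moved. These shares concern mRNA, not protein, and their sizes depend on the merged exon lengths. With 2 libraries per group they were not tested.

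**Figure D5:**
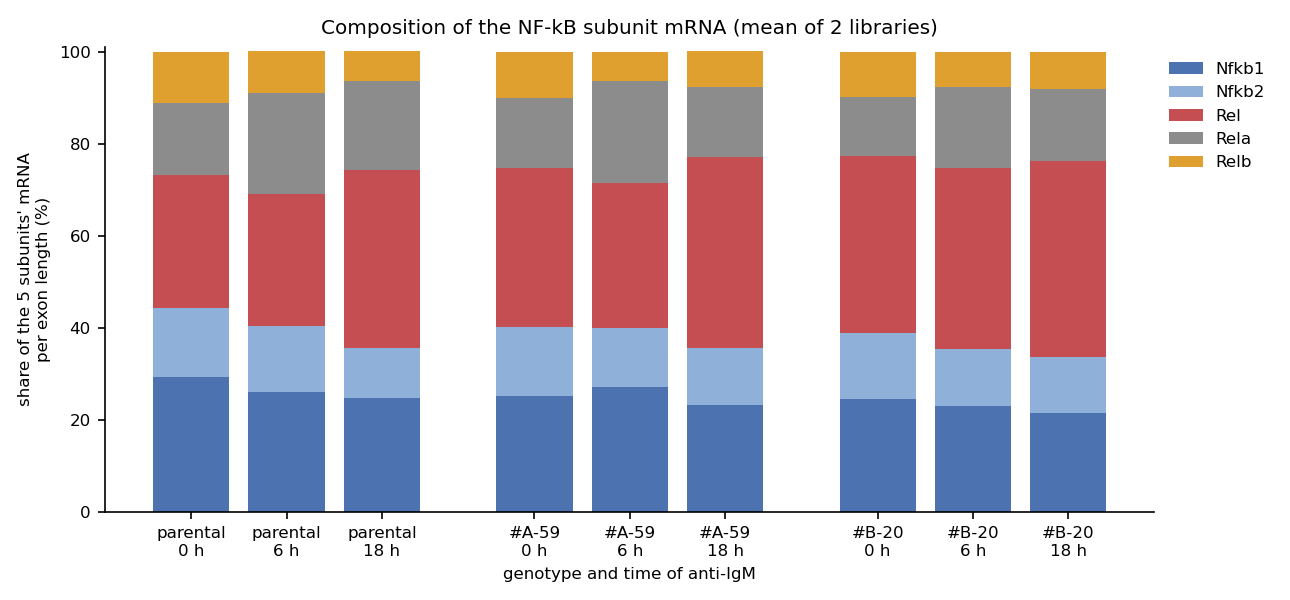
Share in percent of each subunit gene in the per-length mRNA of all 5, for 3 genotypes and 3 times of anti-IgM. Bars are means of 2 libraries. The red segment, Rel, is 28.8% in unstimulated parental cells and between 38.8% and 42.5% at 18 h in the 3 genotypes.

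Over the 18 libraries, which share their 9 groups and are dominated by time, 26 of the 45 pairs of members had a Pearson correlation of log2 CPM above 0.5 and 3 were below 0, with a median of 0.56. The closest pairs were Nfkb2 with Relb (0.97), Nfkbid with Tnfaip3 (0.96) and Nfkbia with Tnfaip3 (0.95). Bcl3 stood apart from all others, with correlations between -0.17 and 0.25. Among 8926 well-expressed genes, those most like a member included Birc3 (0.961) and Cd40 (0.947) for Nfkbia, Traf3 for Nfkbid (0.942) and Nfkb2 (0.935), Cflar (0.954) for Rel, Tfe3 (0.945) for Nfkb1 and Ezr (0.896) for Nfkbie. Jade2 was among the closest for Nfkb1 (0.932), Nfkb2 (0.962), Relb (0.942) and Tnfaip3 (0.928). The others were Samtor (0.952) for Rel, Ezr (0.93) for Relb, Rasal1 (0.883) for Nfkbie, Slc7a1 (0.947) for Nfkbid and Cd24a (0.918) for Tnfaip3. For Rela they were Zbtb49 (0.821) and Nenf (0.778), and for Bcl3 Usp21 (0.915) and Gm3809 (0.902).

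The other genes of the pathway were read from lists of its known components. Ikbkb, the catalytic kinase IKKβ, was lower in both clones at 6 h (-0.95 in clone #A-59 and -0.83 in clone #B-20) and 18 h (-0.85 and -0.80). Of the 12 genes of its list, 1 was lower in each clone already at 0 h and 1 was higher in #B-20. At that time 9.56% of all genes differed in #A-59 and 10.7% in #B-20. None of the 12 passed an interaction term for the 6 h or 18 h response, where at most 0.646% of all genes did. Of the remaining IκB genes, Nfkbib was lower in parental cells at 18 h (-0.55, edgeR FDR = 0.00359) and Nfkbiz passed in no comparison with 0 h. Genes named in this paragraph were picked after their values were seen.

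Of the 7 tested genes of the non-canonical arm, 4 were lower in parental cells at 6 h and 3 in each clone, against 4.24%, 3.69% and 0.875% of all genes, and none was higher. Cd40, the costimulatory receptor whose signal rescues these cells, was at 199 and 205 CPM in unstimulated parental cells, 60.9 and 51.6 at 6 h and 72.1 and 56.7 at 18 h. It was higher in the clones at 6 h by 1.07 ± 0.14 (#A-59, edgeR FDR = 1.17e-05) and 1.05 ± 0.14 (#B-20, FDR = 1.83e-05), while the interaction terms for its 6 h response, 0.73 and 0.80, did not pass (FDR = 0.0668 and 0.0783). Birc3, a ubiquitin ligase acting on NIK, and Traf3, its adaptor, were lower at 6 h and 18 h in every genotype, with log2 fold changes at 6 h of -1.52, -1.03 and -0.97 for Birc3 and -0.93, -0.88 and -0.76 for Traf3. Birc3 and Traf3 were named after their values were seen.

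Among the 12 ubiquitin ligases and A20 partners, Tnip3, which encodes an A20-binding protein, was the gene higher in both clones at all times. It was near the detection limit in parental cells, at 0.289 and 0.166 CPM at 0 h (8 and 4 counts), against 6.37 and 7.15 CPM in clone #A-59 and 1.87 and 2.42 in clone #B-20. The log2 differences at 0 h were 4.83 ± 0.39 (edgeR FDR = 4.01e-08) and 3.19 ± 0.46 (FDR = 5.89e-05).

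Of 23 tested textbook NF-κB targets of B cells, 3 were higher and 7 lower in parental cells at 6 h, 0 and 6 in clone #A-59, and 1 and 4 in clone #B-20. Of all genes, 3.1% were higher and 4.24% lower in parental cells, 2.45% and 3.69% in clone #A-59, and 0.411% and 0.875% in clone #B-20. Ccnd2 (cyclin D2) was lower at 6 h in every genotype (-1.14, -1.34 and -1.26), and Irf4, a regulator of plasma cell differentiation, at 18 h (-1.70, -1.09 and -1.12). Ltb (lymphotoxin β) was at 435 and 534 CPM in unstimulated parental cells and at 94.0 and 97.7 at 6 h, and it was higher in the clones at 6 h by 1.03 and 1.21. Ebi3, a cytokine subunit, was higher in the clones at 6 h by 1.64 and 1.19. Against parental cells at 6 h, 7 of the 23 targets were higher and 4 lower in clone #A-59, and 7 and 2 in clone #B-20. The medians of their log2 differences were 0.17 and -0.02, and 22.7% and 14.2% of all genes differed. Irf4 also declined from 6 h to 18 h in parental cells (-1.27 ± 0.11, edgeR FDR = 2.6e-08), with 0.01 and -0.26 in the clones, and this change differed from that of parental cells by 1.29 ± 0.15 in clone #A-59 (FDR = 9.91e-05) and 1.01 ± 0.15 in clone #B-20 (FDR = 0.000756), the comparison added for Nfkbie.

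The library kit did not mark strand, and reads from genes with overlapping exons could not be told apart. Nfkb2 shared 1933 exonic bases with Psd and 1081 with 4833438C02Rik on the opposite strand, whose levels reached at most 40.7 and 12 CPM. Gm16175 opposite Bcl3 reached 1.33 CPM and Gm36634 opposite Nfkbia 0.207 CPM. Relb, Rel, Nfkbie and Nfkbid had no such overlap in this annotation.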

How the data were processed

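Per the paper's methods and the labels, RNA was made into non-stranded TruSeq libraries, sequenced as single 50-base reads, aligned with STAR 2.5 to GRCm38 (Ensembl 100) and counted with featureCounts 1.5.0-p1 by the authors, who deposited raw counts per gene, not normalized. Counting options were not given in the sources used here. Members and lists were chosen with earlier results of these data known. Of 55487 genes, 15318 passed filterByExpr. One edgeR 4.0.16 quasi-likelihood model (R 4.3.3, TMM scaling, 9 group means, 18 libraries) gave 22 planned comparisons and 2 added after the values were seen, with Benjamini-Hochberg adjustment per comparison. A gene passed at an FDR below 0.01. Levels are TMM-scaled CPM. Replicates of a group differed beyond counting noise (chi-square per degree of freedom 3.59 to 58.3) and none was merged. As 2 libraries per group give the spread, adjusted p-values measure only the variation between these samples. The named list genes were those past an FDR of 0.01 and a log2 change of 1 in the same direction in all genotypes, or in both clones, at a time. Ikbkb, Nfkbib, Nfkbiz, Birc3, Traf3, Cd44, Fas and Myc fell outside this rule and were named after their values were seen. Like genes were ranked by Pearson correlation of log2 CPM. Symbols came from GENCODE vM39 (93.2% of IDs matched), coordinates and promoters from RefSeq GRCm38. Alternatives were DESeq2 1.42.0, its size factors, other filters, fits on the compared libraries alone, GC correction, a replicate block and leaving out each library. One list of upstream signalling genes is not reported here in full.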

Additional observations from a re-analysis of the deposited data

Results flagged for a closer look

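Nfkbie, which encodes IκBε, met the criterion of a response that differs between genotypes by an interaction test 3 times. Its change at 6 h of anti-IgM differed between #A-59 and parental cells by -0.87 on the log2 scale (edgeR FDR = 0.00643). The corresponding value of Nfkbie in #B-20 was -0.48 and did not pass (FDR = 0.296). Its change from 6 h to 18 h differed from that of parental cells by 1.36 in #A-59 (FDR = 0.000105) and by 1.2 in #B-20 (FDR = 0.000402), and this comparison was chosen after its levels had been seen. Both clones share the parental libraries in these tests. All 3 tests use the parental 6 h libraries and both tests of #A-59 use its 6 h libraries, so they are not independent of each other.

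Nfkbia, which encodes IκBα, met the same criterion for the 18 h response of #B-20, which differed from that of parental cells by 1.21 (edgeR FDR = 0.005). The corresponding value in #A-59 was 0.79 (FDR = 0.134), and the difference between the clones in this response was not tested.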

How the results depend on the processing

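No call of a member turned its direction in any alternative. Of 240 member results, 48 that had not passed changed sign in some fit, with main log2 values of at most 0.27, and none passed there. Of 72 calls, 52 held in the 8 other settings, 42 in all 18 fits without 1 library and 39 in all of these. Those that held throughout included Nfkbid and Nfkbia at 6 h and 18 h against 0 h in parental cells and #A-59. Against parental cells they included Nfkbie in both clones at 6 h and Bcl3 in #A-59 at 6 h and 18 h. The median log2 change of all genes moved by at most 0.052 between settings. With 2 libraries per group, calls near the threshold were those most often lost.

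The count of members passing moved by over 1.5 times as follows. With DESeq2 it was 7 for #B-20 at 6 h against 0 h, 7 for #A-59 against parental cells at 18 h, and 1 and 3 for the 6 h and 18 h responses of #B-20. Without a filter on low counts it was 7 and 5 for #B-20 at 6 h against 0 h and 18 h against 6 h, 2 and 7 for #A-59 against parental cells at 0 h and 18 h, 2 and 3 for #B-20 against #A-59 at 0 h and 18 h, 2 and 2 for the responses of #A-59, and 1 and 5 for those of #B-20. With only the libraries compared it was 5 and 3 for #A-59 at 6 h against 0 h and 18 h against 6 h, 2 and 2 for #B-20 at 6 h and 18 h against 0 h, 7 for #A-59 against parental cells at 18 h, 1 for #B-20 against parental cells at 0 h, 1 for #B-20 against #A-59 at 6 h, and 0 and 1 for the 6 h responses of #A-59 and #B-20. The call of Nfkbie for the 6 h response of #A-59 was then lost (FDR = 0.019). With GC correction it was 2 for #A-59 against parental cells at 0 h and 2 for #B-20 against #A-59 at 18 h. The cause was not tested.

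Same-numbered replicates deviated together little. Correlations of their deviations ran from -0.03 to 0.32 over 36 pairs of groups, 14 of them above 0.1. The main fit therefore held no replicate block. These correlations cannot exclude a pairing that shows in single genes, such as Tnfaip3. The paper describes independent experiments, which the replicate number may mark. With a replicate block the counts moved to 1 and 3 for the 18 h responses of #A-59 and #B-20, and 14 member results gained a call and 0 lost one. Of these, 9 were of Tnfaip3, higher in replicate 1 in all 9 groups, among them #A-59 against parental cells at 18 h (1.15, FDR = 1.8e-06), the 18 h responses of #A-59 (1.25, FDR = 0.00188) and #B-20 (1.40, FDR = 0.000274) and their changes from 6 h to 18 h (1.01, FDR = 0.00145, and 0.93, FDR = 0.00308). With the replicate block and GC correction together they were 7, 7 and 4 for #B-20 at 6 h and 18 h against 0 h and 18 h against 6 h, 2 for #A-59 against parental cells at 0 h, 4 and 2 for #B-20 against #A-59 at 6 h and 18 h, 2 for the 18 h response of #A-59, and 1 and 2 for the 6 h and 18 h responses of #B-20.

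Without 1 library the counts at 6 h against 0 h ranged from 4 to 8 in parental cells, 7 to 8 in #A-59 and 3 to 7 in #B-20, at 18 h against 0 h from 7 to 8, 3 to 5 and 1 to 4, and at 18 h against 6 h from 2 to 4, 1 to 6 and 0 to 3. Against parental cells at 0 h, 6 h and 18 h they ranged from 0 to 1, 2 to 3 and 3 to 5 in #A-59 and from 0 to 2, 3 to 4 and 2 to 5 in #B-20. Between the clones they ranged from 1 to 2, 1 to 2 and 1 to 1. For the 6 h and 18 h responses they ranged from 0 to 1 and 0 to 0 in #A-59 and from 0 to 0 and 0 to 2 in #B-20.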

Other observations

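Of the textbook targets, Cd44, an adhesion receptor, and Fas, a death receptor, moved in ways the listed comparisons above did not cover, and they are named here after their values were seen. Cd44 rose in parental cells at 6 h by 0.79 on the log2 scale and was lower than unstimulated cells at 18 h (-0.93). Its 6 h response differed from that of parental cells by -0.90 in #A-59 and by -0.87 in #B-20, and its change from 6 h to 18 h by 1.44 in each clone, all with an edgeR FDR below 0.01. Fas in clone #B-20 exceeded its parental level by 3.19 at 6 h and 3.27 at 18 h. It fell outside the rule above of an FDR of 0.01 and a log2 change of 1 in both clones. The difference is therefore given for #B-20 alone, where an effect of Tfeb loss and a trait of the clone cannot be told apart. Myc, a driver of B cell growth, was lower at 18 h in parental cells (-2.48, edgeR FDR = 0.00014) and #A-59 (-1.92, FDR = 0.000809), and its value in #B-20, -1.16, did not pass (FDR = 0.017).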
